A study of Mus musculus and Homo sapiens with 11 samples.

Results

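ATP-binding cassette (ABC) transporters are membrane pumps that burn ATP to move lipids, drugs, peptides and metabolites across membranes. In the table of mouse MMTV-ErbB2 breast cancer cells, 50 of 24062 listed genes had a symbol made of Abca to Abcg, a number and, for some, a final a or b. The choice used symbols and no measured value. Of the 50 members, 32 had a mean of at least 10 normalised reads over the 6 libraries and were tested, 15 had reads but stayed below that level, and 3 (Abca14, Abca15 and Abca16) were at 0 in every library. Tap1, Tap2 and Cftr are ABC proteins under other symbols and are given apart from the members.

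The tested libraries were 3 of the brain metastatic derivative BrM 2a, set against 3 of the parental line from which it was made. Both carry ErbB2 under the mouse mammary tumour virus promoter, which is what the name of the line describes, and both were grown in culture on DMEM or RPMI based medium to 80% confluence. The labels assign neither the medium nor the library kit (TruSeq or NEBNext) to a library, so medium and kit cannot be told apart from the change of line. BrM 2a is a single derivative, and nothing states that its 3 libraries or the 3 parental ones came from separate cultures, so the p-values measure the spread among these libraries, which may be technical. Libraries are called by the number in their column of the table. The 5 human HCC1954 libraries were not analysed here.

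The A subfamily moves lipids. The B subfamily holds P-glycoprotein, a bile lipid pump, a bile salt pump and pumps of mitochondria and lysosomes. The C subfamily exports conjugates of drugs and metabolites and includes regulatory subunits of potassium channels. The D subfamily brings fatty acids into peroxisomes, apart from Abcd4, which sits in lysosomes. The G subfamily exports sterols and, through Abcg2, drugs, and the E and F proteins have no membrane part and act on ribosomes. P-glycoprotein and Abcg2 are best known at the blood-brain barrier, where they return drugs to the blood, and Abcg2 also loads compounds into milk in the lactating mammary gland. Mice make P-glycoprotein from a pair of neighbouring genes, Abcb1a and Abcb1b, where humans have ABCB1.

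The libraries held 29877087 to 39106969 reads in genes for BrM, where replicate 1 was the shallowest, and 39304974 to 46683735 for parental replicates. BrM replicate 1 stood apart within its group: 26.0% of the 13821 tested genes were at least 2-fold from the mean of BrM replicates 2 and 3, while BrM replicates 2 and 3 were that far apart for 1.59% of genes and pairs of parental libraries for 7.06% to 12.2%. Mammary epithelial markers summed to 185726 to 221901 in BrM and 127868 to 138723 in parental libraries, although keratin 7 (Krt7) was at most 4.88 in any library. Of 5 tested genes of that list 2 were higher (Krt8 and Krt18) and 1 was lower (Cdh1, 1.55-fold, limma adjusted p = 0.0113). Epcam and Erbb2 did not pass. The summed fibroblast and pericyte list was 209 to 995 in BrM and 1565 to 5894 in parental libraries, with 0 of its 5 tested genes higher, 3 lower, and Dcn and Thy1 at 0 in BrM. Thy1 had only 3 reads in parental libraries. The macrophage list summed to 2409 to 11653 in BrM and 21664 to 40555 in parental libraries, mostly Cd14, while Csf1r was 49.1-fold higher in BrM (limma adjusted p = 0.00370), so that of 3 tested genes 1 was higher and 1 lower. Ptprc of that list, a marker of leukocytes in general, was at most 4.88 in any library. In bulk RNA, fewer cells of a type and less RNA per cell cannot be told apart. The endothelial list was at 204 to 335 in BrM and 219.9 to 358 in parental libraries, mostly Flt1 in each group. Lists of brain cells summed to 1881 to 2069 (neurons), 102 to 222 (astrocytes) and 2110 to 2196 (oligodendrocytes) in BrM, against 957 to 1461, 1533 to 4387 and 981 to 1303 in parental libraries. The neuron and oligodendrocyte sums were almost wholly Map2 and Mbp. Of 3 tested astrocyte genes 1 was higher (Gfap, 106 ± 29.9 in BrM and 23.4 ± 5.08 in parental libraries, SD, n = 3 each) and 2 were lower, while Aqp4 and Mog had no read in BrM and 1 read each in parental libraries. The adipocyte list was at 9.77 to 14.3 in BrM and 51.0 to 789 in parental libraries, where it was Fabp4 alone. Adipoq went the other way, with 8 reads in BrM and 0 in parental libraries. The part of these lists in the results below was not tested.

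Values are normalised read counts unless stated. Fold changes are BrM over parental from limma on log2 of the value plus 1. The added 1 shrinks the change of genes with few reads. These fold changes compare means of logs, so they can still exceed the ratio of mean values, as for Abcb1a. Adjusted p-values cover all 13821 tested genes with a threshold of 0.05. Of the 32 tested members 6 were higher in BrM (Abca12, Abcg4, Abca4, Abcb9, Abcd4 and Abcb8), 7 were lower (Abcb1a, Abcb1b, Abca1, Abcd3, Abcb6, Abca2 and Abca3) and 19 did not pass. That is 40.6% of the tested members, beside 28.1% of all tested genes (12.2% higher and 15.8% lower). The counts by role and by list below are to be read beside these shares of all tested genes. The median log2 fold change was -0.14 over tested members and -0.05 over all tested genes. Abca12, Abca4 and Abcg4 passed the filter on low values only through their BrM libraries, and Abcb1a only through its parental libraries, so these counts describe the tested members and are no evidence about the family. BrM and parental values did not overlap for 14 of 32 tested members, the 13 that passed and Abcc4, against 48.0% of all tested genes.

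**Figure D1:**
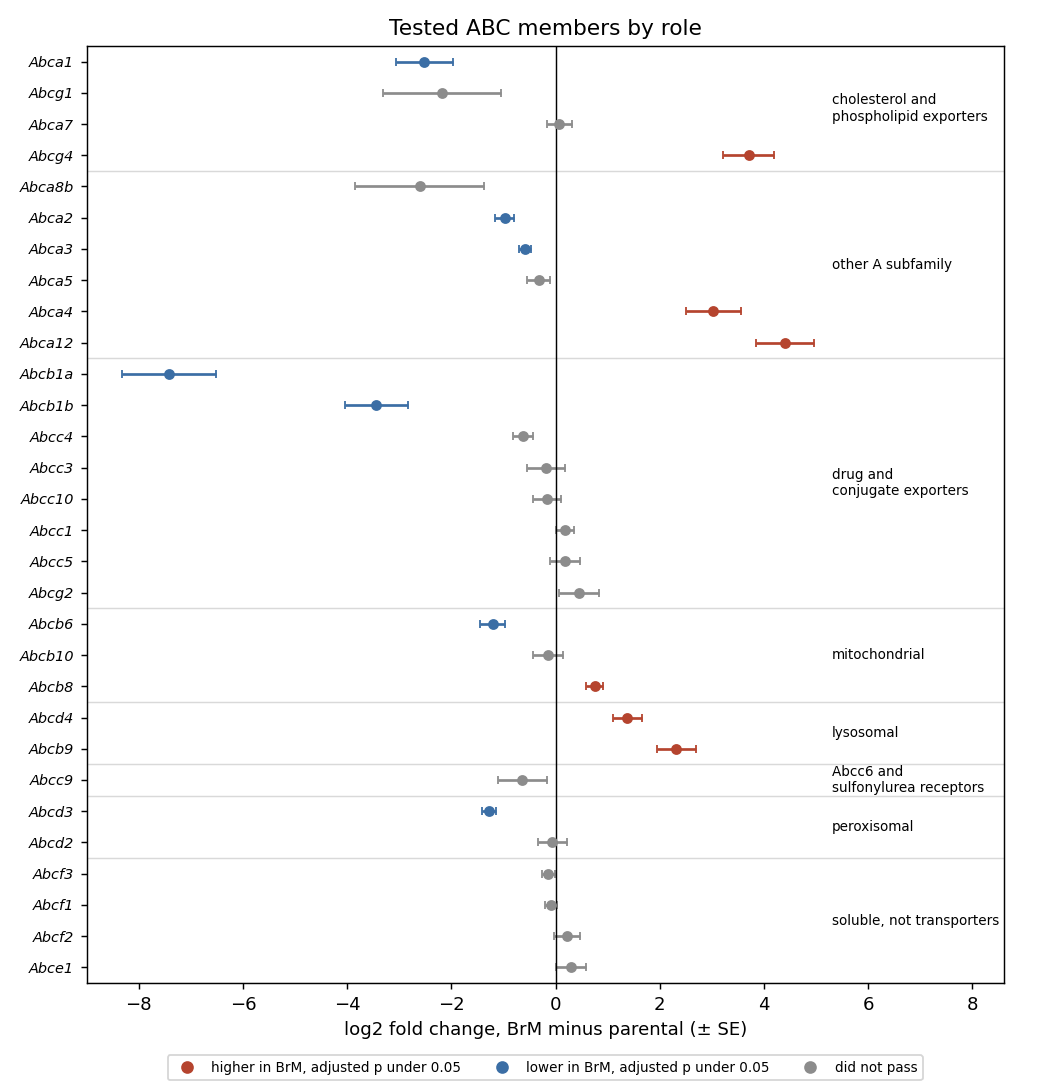
Log2 fold change (BrM minus parental, x axis) with its standard error for tested members, grouped by role. Red points passed as higher, blue points as lower and grey points did not pass; Abcb1a lies farthest to the left at -7.42 and Abca12 farthest to the right at 4.41.

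Among the 11 exporters of drugs and conjugates, P-glycoprotein RNA was nearly gone from the derivative, while the other tested exporters of the class did not pass. Of 8 tested exporters 0 were higher, 2 were lower and 6 did not pass, with a median log2 fold change of -0.17. Abcb1a, the pump of the mouse blood-brain barrier, had 24.4, 3.83 and 0.931 in BrM replicates 1, 2 and 3, against 1376, 742 and 1156 in parental replicates 1, 2 and 3. Every BrM library lay far below every parental one, and the 3 BrM values came from 20, 4 and 1 reads. Abcb1a was 171-fold lower (log2 fold change -7.42, SE 0.91, limma adjusted p = 0.00221), 346-fold lower without BrM replicate 1 and 95.5-fold lower without BrM replicate 3. Abcb1b, the second P-glycoprotein gene, had 20.8, 95.6 and 94.1 in BrM replicates 1, 2 and 3, against 530, 789 and 603 in parental replicates 1, 2 and 3. The groups did not overlap, and BrM replicate 1, the highest BrM library for Abcb1a, was the lowest for Abcb1b. Abcb1b was 10.8-fold lower (log2 fold change -3.44, SE 0.61, limma adjusted p = 0.00826) and 6.60-fold lower without BrM replicate 1.

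The 2 genes lie side by side on chromosome 5 of GRCm38, Abcb1a at 8660077 to 8748575 and Abcb1b at 8798147 to 8866315, both on the plus strand and followed by Abcb4. They resemble each other closely in sequence, and how the counting treated reads that match both was not given in the sources used here, so the split of reads between them is uncertain, whereas their sum is less exposed to it. Per kilobase of annotated exon the pair summed to 7.05, 12.7 and 11.9 in BrM replicates 1, 2 and 3, against 317, 234 and 286 in parental replicates 1, 2 and 3. Abcb1a gave 63.2% of that sum in BrM replicate 1, 5.51% in BrM replicate 2 and 1.42% in BrM replicate 3, against 79.1%, 57.8% and 73.6% in parental replicates 1, 2 and 3. As counted, the Abcb1a share was below the parental range in BrM replicates 2 and 3, where it rests on 4 and 1 Abcb1a reads. BrM replicate 1 stayed within the parental range of shares. Given the uncertain split, a shift within the pair was not tested. Abcb4, the phosphatidylcholine pump of bile and next gene of the row, was below the level for testing, at 11.0, 0 and 0 in BrM replicates 1, 2 and 3 and 8.14, 11.5 and 2.83 in parental replicates 1, 2 and 3.

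Genes around the pair were read in the same fit. Rundc3b, 37125 bases from Abcb1a, was at 2.44, 0 and 0 in BrM replicates 1, 2 and 3, against 122, 161 and 148 in parental replicates 1, 2 and 3. BrM had 2 reads and the parental line 473, a 213-fold lower BrM level when reads are compared (exact 95% interval 58.8 to 1768, counting error only; limma adjusted p = 0.000667). Tmem243, which lies beyond Abcb4 and Crot, averaged 102 ± 46.7 in BrM and 337 ± 19.4 in parental libraries (SD, n = 3 each; limma adjusted p = 0.0115). Crot, also within 250 kb and next to Abcb4, was 1829 ± 615 in BrM and 1974 ± 301 in parental libraries (limma adjusted p = 0.699), and Slc25a40, on the other side of Rundc3b, was 902 ± 71.1 in BrM and 797 ± 189 in parental libraries (limma adjusted p = 0.510). Of 5 tested neighbours within 250 kb of Abcb1a, 2 were lower (Rundc3b and Abcb1b) and 3 did not pass. Tmem243 lies outside that distance from Abcb1a. Of 4 tested neighbours within 250 kb of Abcb1b, 3 were lower (Rundc3b, Abcb1a and Tmem243) and 1 did not pass. Both counts share genes and include the pair itself, and 15.8% were lower among all tested genes.

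The RefSeq windows of GRCm38.p6 from 250 bases before to 50 bases after a listed start are shown for the P-glycoprotein pair because both genes fell, for Abca1 because it fell among the cholesterol exporters, and for Abcb9 because it had the larger rise of the lysosomal members. Capitals mark, on either strand, the TATA box (letters TATAAA), the CCAAT box (letters CCAAT), the GC box (letters GGGCGG), the AP-1 motif (letters TGANTCA) and the E-box (letters CACGTG), which do not overlap one another in these windows.
Abcb1a (chr5:8566841-8567140, plus strand): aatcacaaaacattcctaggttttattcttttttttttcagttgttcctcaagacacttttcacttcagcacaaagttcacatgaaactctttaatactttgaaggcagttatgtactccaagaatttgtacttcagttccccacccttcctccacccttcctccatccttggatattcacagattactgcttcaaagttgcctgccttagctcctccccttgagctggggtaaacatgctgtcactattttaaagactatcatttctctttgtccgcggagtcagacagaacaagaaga
Abcb1b (chr5:8797897-8798196, plus strand): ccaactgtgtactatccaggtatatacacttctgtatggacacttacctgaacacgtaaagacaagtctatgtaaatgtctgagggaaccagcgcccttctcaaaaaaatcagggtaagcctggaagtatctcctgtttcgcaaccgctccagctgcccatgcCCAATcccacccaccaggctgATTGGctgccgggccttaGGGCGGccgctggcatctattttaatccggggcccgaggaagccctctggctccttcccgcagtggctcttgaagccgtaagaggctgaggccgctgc
Abca1 (chr4:53159846-53160145, minus strand): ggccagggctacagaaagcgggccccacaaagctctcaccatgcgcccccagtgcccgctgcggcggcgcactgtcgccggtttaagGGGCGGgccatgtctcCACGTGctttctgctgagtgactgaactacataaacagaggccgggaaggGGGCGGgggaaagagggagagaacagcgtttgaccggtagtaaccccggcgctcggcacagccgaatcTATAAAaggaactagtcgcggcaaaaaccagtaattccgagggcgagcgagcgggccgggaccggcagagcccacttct
Abcb9 (chr5:124095749-124096048, minus strand): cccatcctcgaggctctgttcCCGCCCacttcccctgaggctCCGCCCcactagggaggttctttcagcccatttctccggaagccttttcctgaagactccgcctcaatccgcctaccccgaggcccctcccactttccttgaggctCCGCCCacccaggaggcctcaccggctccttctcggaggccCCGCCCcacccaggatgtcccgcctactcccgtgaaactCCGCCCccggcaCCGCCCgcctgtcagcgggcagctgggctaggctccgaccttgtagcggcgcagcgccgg

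The Abcb1a start listed by RefSeq lies 93.0 kb upstream of the GENCODE gene start, so its window may not be the start in use in these cells, and it held none of the 5 motifs. The Abcb1b window held the CCAAT box at -87 and, on its opposite strand, at -66, and the GC box at -48, counted from the listed start at 0. The Abca1 window held the TATA box at -29, the E-box at -147 and the GC box at -163 and -97. The Abcb9 window held 6 GC boxes on its opposite strand and no other of the motifs. Of 32851 windows in the table, 13.6% held the TATA box, 37.4% the CCAAT box, 35.7% the GC box, 7.81% the AP-1 motif and 7.15% the E-box. Windows were listed for 38 of the 50 members, 45 windows in all, of which 7 held the TATA box, 16 the CCAAT box, 21 the GC box, 0 the AP-1 motif and 6 the E-box. A match describes the letters only.

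The remaining exporters kept the class well expressed. Abcc1, which exports glutathione conjugates, had 8412, 5834 and 6064 in BrM replicates 1, 2 and 3, against 5610, 5513 and 6681 in parental replicates 1, 2 and 3. The groups overlapped and Abcc1 did not pass (log2 fold change 0.18, SE 0.18, limma adjusted p = 0.506). Abcg2, the breast cancer resistance protein, had 527, 1022 and 1035 in BrM replicates 1, 2 and 3, against 624, 876 and 403 in parental replicates 1, 2 and 3. BrM replicates 2 and 3 were above all parental libraries and BrM replicate 1 was within them, and Abcg2 did not pass (log2 fold change 0.45, SE 0.38, limma adjusted p = 0.427). Abcc4, which exports cyclic nucleotides and prostaglandins, had 1261, 956 and 1034 in BrM replicates 1, 2 and 3, against 1902, 1721 and 1373 in parental replicates 1, 2 and 3. The groups did not overlap, but the limma adjusted p was 0.0506, with 0.0462 by edgeR and 0.0189 by DESeq2.

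Abcc3, Abcc5 and Abcc10, further organic anion and conjugate pumps, averaged 440 ± 234, 1559 ± 394 and 314 ± 88.1 in BrM, against 460 ± 67.4, 1373 ± 377 and 347 ± 61.4 in parental libraries (SD, n = 3 each). None of these 3 passed, with limma adjusted p-values of 0.755, 0.654 and 0.693. Abcc2, Abcc12 and the rodent gene Abcg3 had 1.94 to 3.60 on average in BrM and 1.45 to 2.79 in parental libraries and were not tested. Per kilobase of exon, Abcc1 made up 49.8%, 41.9% and 41.3% of the summed class in BrM replicates 1, 2 and 3, against 28.7%, 29.1% and 35.0% in parental replicates 1, 2 and 3. The 11 exporters together stood at 923 to 1119 per kilobase in BrM and 1256 to 1294 in parental libraries, so the groups did not overlap. That sum includes Abcb1a and Abcb1b, which together gave 7.05 to 12.7 in BrM and 234 to 317 in parental libraries. The class sum and the Abcc1 share therefore carry the fall of the pair and are not separate results. Abcb1a alone was 0.0175% to 0.398% of the class in BrM and 10.8% to 19.4% in parental libraries.

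**Figure D2:**
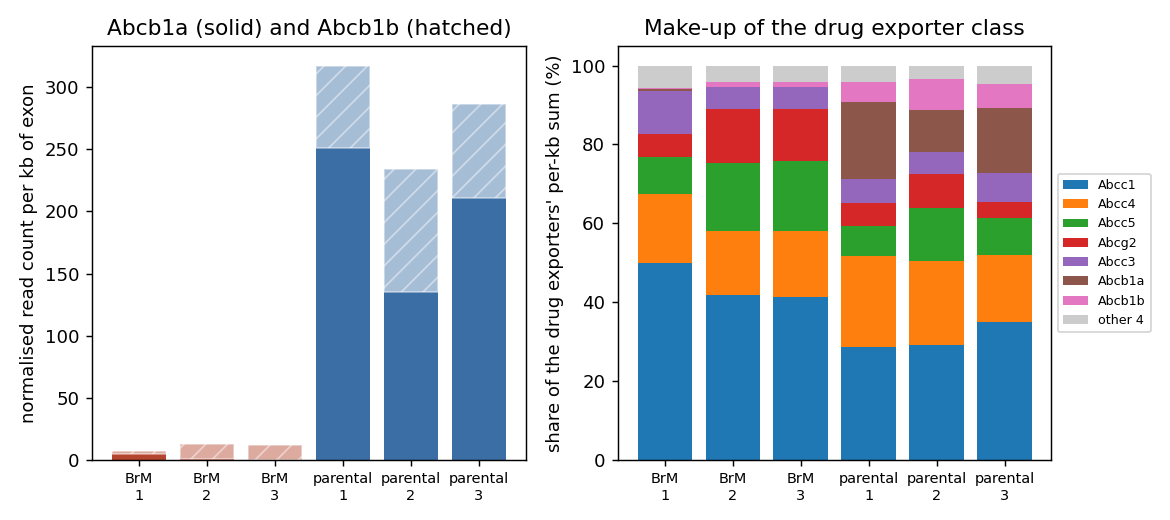
Left, normalised read count per kilobase of exon for Abcb1a (solid) stacked with Abcb1b (hatched) in each library. Right, the share of each exporter in the per-kilobase sum of the 11 drug and conjugate exporters, where the Abcb1a and Abcb1b bands are wide in the 3 parental libraries and almost absent in the 3 BrM libraries.

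Exporters of cholesterol and phospholipid moved in opposite directions. Of 6 members 4 were tested, with 1 higher, 1 lower and 2 that did not pass. Abca1, which loads cholesterol onto lipid-poor apolipoprotein A-I and is a classic target of the oxysterol-sensing liver X receptors (LXR), had 533, 132 and 146 in BrM replicates 1, 2 and 3, against 1437, 1440 and 948 in parental replicates 1, 2 and 3. All BrM libraries were below all parental ones, with BrM replicate 1 between the others and the parental range. Abca1 was 5.73-fold lower (log2 fold change -2.52, SE 0.55, limma adjusted p = 0.0174) and 8.95-fold lower without BrM replicate 1, and its call was lost without BrM replicate 2 or 3 or parental replicate 1 or 2 (limma adjusted p 0.0561 to 0.0697).

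Abcg1, which passes cholesterol to high-density lipoprotein and is another LXR target, had 97.7, 3.83 and 6.52 in BrM replicates 1, 2 and 3, against 96.7, 43.7 and 74.6 in parental replicates 1, 2 and 3. BrM replicate 1 matched the highest parental library while BrM replicates 2 and 3 fell below all parental ones, and Abcg1 did not pass (log2 fold change -2.18, SE 1.13, limma adjusted p = 0.201). Abcg4, a sterol exporter best known in neurons and glia, had 52.5, 85.1 and 95.0 in BrM replicates 1, 2 and 3, against 4.07, 9.06 and 2.83 in parental replicates 1, 2 and 3. Each BrM library exceeded each parental one, and Abcg4 was 13.1-fold higher (log2 fold change 3.71, SE 0.49, limma adjusted p = 0.00294). Abca7, a phospholipid exporter linked to Alzheimer's disease in humans, had 2922, 1771 and 1901 in BrM replicates 1, 2 and 3, against 2524, 1726 and 1949 in parental replicates 1, 2 and 3 (limma adjusted p = 0.854), with overlapping groups. The half-transporters Abcg5 and Abcg8, which together export plant sterols, were not tested and share 82 bases of exon on opposite strands. Abcg8 was at 2.46 ± 2.13 in BrM and 12.4 ± 2.84 in parental libraries, and Abcg5 at 3.88 ± 5.19 in BrM and 0.275 ± 0.476 in parental libraries (SD, n = 3 each).

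The other A subfamily genes held both rises and falls. Of 14 members 6 were tested, with 2 higher, 2 lower and 2 that did not pass. Abca12, which delivers glucosylceramide for the lipid barrier of skin, had 35.4, 34.4 and 51.2 in BrM replicates 1, 2 and 3, against 1.02, 2.47 and 0 in parental replicates 1, 2 and 3. The parental values came from 4 reads in all, and Abca12 was 21.3-fold higher (log2 fold change 4.41, SE 0.56, limma adjusted p = 0.00255). Abca4, the retinoid flippase of photoreceptors, had 33.0, 23.9 and 21.4 in BrM replicates 1, 2 and 3, against 1.02, 4.94 and 1.89 in parental replicates 1, 2 and 3, and was 8.18-fold higher (log2 fold change 3.03, SE 0.53, limma adjusted p = 0.00784). Both genes stayed at low levels even in BrM.

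Abca2, a lipid transporter of endosomes and lysosomes that is abundant in oligodendrocytes, had 3778, 2835 and 3482 in BrM replicates 1, 2 and 3, against 5602, 6446 and 7913 in parental replicates 1, 2 and 3. Abca2 was 1.97-fold lower with no overlap (log2 fold change -0.98, SE 0.18, limma adjusted p = 0.00948). Abca3, the phospholipid pump of lung surfactant bodies, had 4183, 3703 and 4030 in BrM replicates 1, 2 and 3, against 6420, 5785 and 5776 in parental replicates 1, 2 and 3. It was 1.51-fold lower (log2 fold change -0.59, SE 0.12, limma adjusted p = 0.0117), a call lost without BrM replicate 2 (limma adjusted p = 0.0617) or BrM replicate 3 (limma adjusted p = 0.0503). Exons of Abca3 overlap those of D330041H03Rik on the other strand over 9.8% of their length, and whether reads were counted by strand is not given in the sources used here.

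A row of A subfamily genes on chromosome 11, running Abca8b, Abca8a, Abca9, Abca6 and Abca5 on the minus strand, ranged from moderate levels to almost none. Abca5 averaged 260 ± 46.4 in BrM and 323 ± 25.8 in parental libraries (SD, n = 3 each; limma adjusted p = 0.321). Abca8b had 86.7, 5.74 and 10.2 in BrM replicates 1, 2 and 3, against 365, 138 and 28.3 in parental replicates 1, 2 and 3, and did not pass (log2 fold change -2.61, SE 1.24, limma adjusted p = 0.167). Its values spread widely within both groups and overlapped. Abca8a, a close copy of Abca8b, had 1 read in BrM and 51 reads in parental libraries, a ratio of 46.0 towards parental (exact 95% interval 7.90 to 1853, counting error only), but was below the level for testing. Abca9 and Abca6 averaged 0.407 ± 0.705 and 2.77 ± 2.45 in BrM, against 2.05 ± 2.06 and 10.0 ± 6.24 in parental libraries (SD, n = 3 each). Reads may be split between Abca8a and Abca8b. The fibroblast and pericyte list also had a lower summed level in BrM, and its part in the values of this row of genes was not tested.

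**Figure D3:**
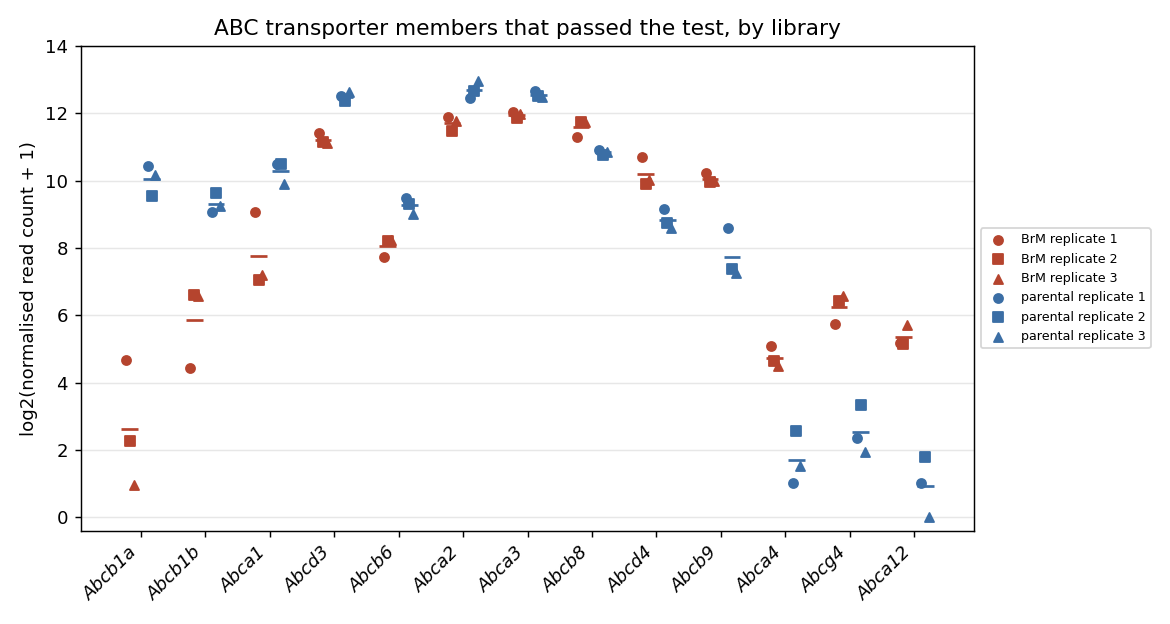
Log2 of the normalised read count plus 1 (y axis) in each library for the 13 members that passed, ordered by fold change from Abcb1a to Abca12. Symbols mark replicates and short lines group means; the 3 BrM libraries lie wholly below the 3 parental ones for the first 7 genes and wholly above for the last 6.

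Both members of the lysosomal list, Abcb9 and Abcd4, rose, while Abca2, counted above with the A subfamily although it also sits in lysosomes, fell. Abcb9, a peptide pump of lysosomes related to the antigen peptide transporter, had 1194, 995 and 1011 in BrM replicates 1, 2 and 3, against 386, 163 and 152 in parental replicates 1, 2 and 3. It was 4.99-fold higher with no overlap (log2 fold change 2.32, SE 0.38, limma adjusted p = 0.00610). Abcd4, which works with Lmbrd1 to release vitamin B12 from lysosomes, had 1661, 960 and 1032 in BrM replicates 1, 2 and 3, against 571, 423 and 384 in parental replicates 1, 2 and 3. It was 2.60-fold higher (log2 fold change 1.38, SE 0.27, limma adjusted p = 0.0125), with a limma adjusted p of 0.0534 without parental replicate 2. Per kilobase of exon, the 2 genes summed to 298 to 421 in BrM and 75.1 to 140 in parental libraries. Of 9 tested neighbours of Abcd4 within 250 kb, 6 were also higher in BrM, 1 was lower and 2 did not pass, while none of the 12 neighbours of Abcb9 was higher and 1 was lower. Among all tested genes 12.2% were higher and 15.8% lower. Abcb8, also higher, had 5 of 14 tested neighbours higher and 1 lower. Abcg4, also higher, had 1 of 20 higher and 7 lower. Whether neighbours change together was not tested.

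Of the 4 mitochondrial members 1 was higher, 1 was lower and 2 did not pass. Abcb8, part of a mitochondrial potassium channel and of iron export, had 2489, 3406 and 3403 in BrM replicates 1, 2 and 3, against 1921, 1745 and 1825 in parental replicates 1, 2 and 3. It was 1.68-fold higher with no overlap (log2 fold change 0.75, SE 0.16, limma adjusted p = 0.0171), and lost its call without BrM replicate 2 or 3 or parental replicate 2 or 3 (limma adjusted p 0.0536 to 0.0737). Abcb6, a porphyrin transporter, had 210.0, 292 and 302 in BrM replicates 1, 2 and 3, against 715, 628 and 510 in parental replicates 1, 2 and 3. It was 2.31-fold lower (log2 fold change -1.21, SE 0.24, limma adjusted p = 0.0120), with a limma adjusted p of 0.0528 without parental replicate 2. Abcb10, which helps haem synthesis, averaged 1405 ± 423 in BrM and 1523 ± 319 in parental libraries (SD, n = 3 each). It did not pass (limma adjusted p = 0.744), and its BrM replicate 1 was below all other libraries.

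In peroxisomes 1 of 3 members fell and 2 did not pass. Abcd3, the most abundant of the 3 and an importer of branched and long dicarboxylic fatty acids, had 2716, 2250 and 2202 in BrM replicates 1, 2 and 3, against 5797, 5241 and 6301 in parental replicates 1, 2 and 3. It was 2.42-fold lower (log2 fold change -1.28, SE 0.14, limma adjusted p = 0.00149), with tight values in both groups and no overlap. Abcd2, an importer of very long chain fatty acids, averaged 64.1 ± 8.13 in BrM and 66.7 ± 7.20 in parental libraries (limma adjusted p = 0.894; SD, n = 3 each).

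The 4 soluble ribosome-associated members did not pass, and Abcf2, Abce1 and Abcf1 among them had the highest levels of the family per kilobase of exon. Abce1, which splits ribosomes after translation ends, had 7514, 14460 and 14703 in BrM replicates 1, 2 and 3, against 8729, 8895 and 11265 in parental replicates 1, 2 and 3 (log2 fold change 0.29, SE 0.29, limma adjusted p = 0.490). Abcf2 had 4750, 8138 and 8250 in BrM replicates 1, 2 and 3, against 5838, 5089 and 6726 in parental replicates 1, 2 and 3 (log2 fold change 0.22, SE 0.25, limma adjusted p = 0.534). In both genes BrM replicate 1 was the lowest of all 6 libraries and BrM replicates 2 and 3 the highest. Abcf1, which acts with initiation factor eIF2, averaged 6089 ± 464 in BrM and 6476 ± 430 in parental libraries (SD, n = 3 each), and Abcf3 averaged 1816 ± 58.6 in BrM and 2002 ± 187 in parental libraries, with limma adjusted p-values of 0.617 and 0.465.

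Compared per kilobase of exon, Abcf2, Abce1 and Abcf1 were the top 3 in that order in both groups, at 2742 ± 774, 2038 ± 680 and 1381 ± 105 in BrM and 2290 ± 319, 1605 ± 237 and 1469 ± 97.5 in parental libraries (SD, n = 3 each). The spreads of Abcf2 and Abce1 overlapped in BrM, and those of Abce1 and Abcf1 in both groups. Read library by library, Abcf2 was above Abce1 in every BrM and parental library. Abce1 was below Abcf1 in replicate 1 of each group and above it in the other libraries. Among membrane transporters Abcb8 had the highest level per kilobase in BrM, 654 ± 112, against 386 ± 18.7 in parental libraries, where it ranked number 10. Abcd3 led the membrane transporters in the parental line at 877 ± 80.4 per kilobase, against 363 ± 43.1 in BrM, where it ranked number 9. Abca2 followed at 403 ± 57.8 per kilobase in BrM and 797 ± 140 in parental libraries. Its spread overlapped that of Abcd3 in the parental line, although Abcd3 was the higher of these genes in each parental library. Abcb1a ranked number 32 of 50 by level per kilobase in BrM and number 15 in the parental line.

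Most members that were not tested had few reads in either group. The 18 had means of at most 8.27 over the 6 libraries. The bile salt pump Abcb11 was at 1.53 ± 1.90 in BrM and 3.84 ± 6.66 in parental libraries, and the sulfonylurea receptor Abcc8, which sets insulin release in the pancreas, had 4 reads in BrM and 1 in parental libraries. Abcb5, a B subfamily gene outside the roles above, had 3 reads in BrM and 1 in parental libraries. Abcc6 averaged 0.407 in BrM and 0.864 in parental libraries, and Abca13 averaged 1.76 in BrM and 9.80 in parental libraries. Abca17 had 8 reads in BrM and none in parental libraries, which is at least 2.95-fold higher when the parental group is set at 3 reads. Abcc9, the other sulfonylurea receptor and the one member of its group that was tested, had 46.4, 21.0 and 25.1 in BrM replicates 1, 2 and 3, against 66.2, 51.9 and 28.3 in parental replicates 1, 2 and 3 (limma adjusted p = 0.355), with overlapping groups.

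The members differed in how far BrM replicate 1 stood from its group. It was at least 2-fold from the mean of BrM replicates 2 and 3 for 6 of 32 tested members, beside 26.0% of all tested genes. Those 6 were Abcg1 at 18.9 times that mean, Abca8b at 10.8 times, Abcb1a at 10.3 times, Abca1 at 3.83 times, Abcc3 at 2.33 times and Abcb1b at 0.219 times. The counts and shares were made on values plus 1, while these ratios are of the values themselves. By the latter Abcc9 also reached 2.01 times. BrM replicates 2 and 3 were 2-fold apart for 1 of the 32, Abcb1a, which had 4 and 1 reads there, beside 1.59% of all tested genes. Parental replicates 1 and 2 were that far apart for 4 of the 32 (7.06% of all tested genes), parental replicates 1 and 3 for 4 (12.2%) and parental replicates 2 and 3 for 5 (9.32%). Without BrM replicate 1, all 13 members that passed still did, and 6 more passed: Abcg1, Abca8b, Abcc3 and Abcc4 as lower and Abce1 and Abcf2 as higher. Calls over all genes also grew, to 2911 higher and 3608 lower, against 1691 and 2190 with all libraries. The derivative then rests on BrM replicates 2 and 3, which differed from each other for 1.59% of genes, and the adjusted p-values of those 6 were 0.00185 to 0.0401.

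**Figure D4:**
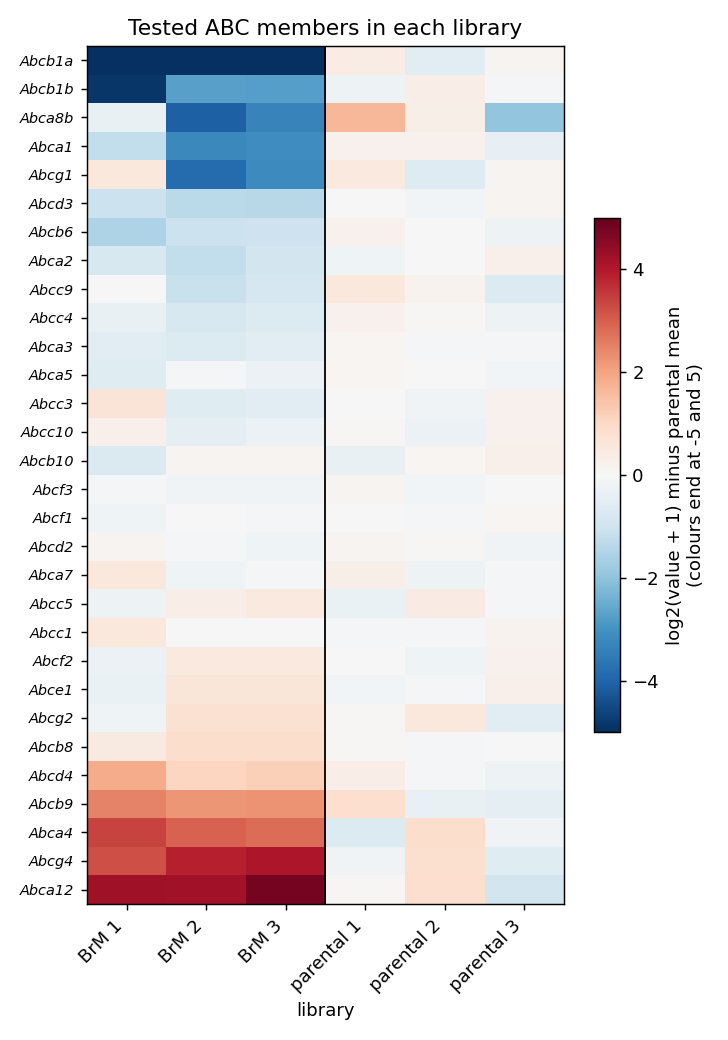
Difference of log2(value + 1) from the parental mean for tested members (rows, ordered by fold change) in each library (columns, BrM left of parental). Blue is below and red above the parental mean; BrM replicate 1 is close to the parental colours for Abcg1 and Abca8b, where BrM replicates 2 and 3 are dark blue.

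Among ABC proteins under other symbols, 0 of 3 were higher, 1 was lower and 2 did not pass. Cftr, the chloride channel of cystic fibrosis, had 11.0, 22.0 and 20.5 in BrM replicates 1, 2 and 3, against 452, 273 and 85.9 in parental replicates 1, 2 and 3. It was 12.2-fold lower (limma adjusted p = 0.00889) and 19.5-fold lower without parental replicate 3. Tap1 and Tap2, the antigen peptide transporter, averaged 627 ± 575 and 1049 ± 749 in BrM, against 997 ± 514 and 3271 ± 1835 in parental libraries (SD, n = 3 each; limma adjusted p 0.389 and 0.0868).

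Of 13 tested sterol sensors, their targets and sterol factors 1 was higher, 3 were lower and 9 did not pass, with a median log2 fold change of -0.38, and the 30.8% called was close to the 28.1% of all tested genes. Nr1h3, which encodes LXR alpha, averaged 203 ± 19.7 in BrM and 543 ± 173 in parental libraries (2.57-fold lower, limma adjusted p = 0.0179, 0.0561 to 0.0699 without BrM replicate 2 or 3 or parental replicate 1 or 3). Its partner Rxra averaged 1964 ± 171 in BrM and 3334 ± 134 in parental libraries (1.70-fold lower, limma adjusted p = 0.00578), and the LXR target Mylip, which degrades the LDL receptor, averaged 269 ± 21.0 in BrM and 745 ± 153 in parental libraries (2.73-fold lower, limma adjusted p = 0.00434). Apoe, an acceptor of exported cholesterol and an LXR target as well, rose 3.21-fold, to 234 ± 66.6 in BrM against 72.4 ± 23.1 in parental libraries (limma adjusted p = 0.0156, 0.0527 to 0.0671 without BrM replicate 2 or 3 or parental replicate 2 or 3).

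Of 10 tested xenobiotic and oxidant response factors 1 was higher, 2 were lower and 7 did not pass, with a median of -0.29. The 30.0% called was close to the 28.1% of all tested genes. Nfe2l2, the oxidant response factor NRF2, averaged 3910 ± 332 in BrM and 5676 ± 921 in parental libraries (1.44-fold lower, limma adjusted p = 0.0488), a call lost without any of BrM replicates 2 and 3 and parental replicates 1 and 3 (limma adjusted p 0.123 to 0.156). Arnt, the partner of the aryl hydrocarbon receptor, averaged 1411 ± 303 in BrM and 2770 ± 368 in parental libraries (limma adjusted p = 0.0126, 0.0510 to 0.0568 without BrM replicate 2 or 3 or parental replicate 1 or 2). Ppard, a fatty acid receptor, averaged 5293 ± 359 in BrM and 2191 ± 216 in parental libraries, 2.42-fold higher (limma adjusted p = 0.00111).

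Enzymes that conjugate compounds for export moved in both directions. Their list also held enzymes that make glutathione, which did not pass. Of the 20 tested genes of this list 2 were higher, 5 were lower and 13 did not pass. The median was -0.50 and 35.0% were called, beside 28.1% of all tested genes. The glutathione transferase Gsto2 averaged 752 ± 88.7 in BrM and 26.1 ± 6.68 in parental libraries (28.2-fold higher, limma adjusted p = 0.000166), and Gstz1 averaged 1489 ± 111 in BrM and 527 ± 49.8 in parental libraries (2.82-fold higher, limma adjusted p = 0.00115). Gstk1 averaged 1.25 ± 1.42 in BrM and 141 ± 21.1 in parental libraries (72.3-fold lower, limma adjusted p = 0.000707), and Gsta4 averaged 4366 ± 2768 in BrM and 23855 ± 4269 in parental libraries (6.10-fold lower, limma adjusted p = 0.00537). Gsta and Gstm genes are close copies of one another, so reads may be split among them.

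The list of carriers of drugs and organic ions also held the vault protein gene Mvp, which is not a membrane carrier. Of the 8 tested genes of this list 0 were higher, 3 were lower and 5 did not pass. Mvp was among the 3, and the median was -0.20. That is 37.5% called with Mvp counted, beside 28.1% of all tested genes. Slco3a1, an organic anion carrier, averaged 1197 ± 754 in BrM and 4333 ± 420 in parental libraries (4.06-fold lower, limma adjusted p = 0.0120). The vault protein gene Mvp averaged 3207 ± 688 in BrM and 5688 ± 1257 in parental libraries (limma adjusted p = 0.0326), and the carnitine carrier Slc22a5 averaged 431 ± 115 in BrM and 715 ± 4.85 in parental libraries (limma adjusted p = 0.0457). Leaving out any library except BrM replicate 1 ended the call of Slc22a5 (limma adjusted p 0.115 to 0.157) and of Mvp (limma adjusted p 0.0571 to 0.106).

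Partners of the organelle members were counted in the same way. Of 16 tested peroxisome genes 0 were higher, 2 were lower and 14 did not pass (median -0.16), so 12.5% were called, beside 28.1% of all tested genes. Acaa1a, a thiolase of peroxisomal fatty acid oxidation, averaged 1308 ± 300 in BrM and 2098 ± 247 in parental libraries (limma adjusted p = 0.0411, 0.0885 to 0.134 when any library except BrM replicate 1 was left out). Of 19 haem and iron-sulfur genes 2 were higher, 1 was lower and 16 did not pass (median -0.04, 15.8% called). The haem synthesis enzymes Alad and Cpox averaged 3761 ± 225 and 4624 ± 291 in BrM, against 1671 ± 124 and 2626 ± 229 in parental libraries (limma adjusted p 0.00125 and 0.00467). Ciao1, of cytosolic iron-sulfur assembly, averaged 1511 ± 128 in BrM and 2153 ± 136 in parental libraries (limma adjusted p = 0.0293, 0.0679 to 0.118 when any library except BrM replicate 1 was left out).

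Of 7 vitamin B12 genes 0 were higher, 1 was lower and 6 did not pass (median -0.52), so 14.3% were called, beside 28.1% of all tested genes. Cd320, the receptor that takes up the vitamin, averaged 565 ± 11.5 in BrM and 811 ± 37.6 in parental libraries (limma adjusted p = 0.0401, 0.0806 to 0.145 when any library except BrM replicate 1 was left out). Kcnj8, a channel partner of Abcc9, had no read in BrM and 41.7, 21.4 and 6.61 in parental replicates 1, 2 and 3, which is at least 22.3-fold lower when BrM as a group is set at 3 reads (limma adjusted p = 0.00622). Of 12 ribosome recycling and start genes 3 were higher, 0 were lower and 9 did not pass (median 0.28, 25.0% called). The 3 were the eIF2 subunits Eif2s1 and Eif2s3x, at 9782 ± 2229 and 20302 ± 4086 in BrM against 3087 ± 324 and 12292 ± 1043 in parental libraries (limma adjusted p 0.00224 and 0.0323), and Eif5, at 21802 ± 5786 in BrM and 9587 ± 1377 in parental libraries (limma adjusted p = 0.0142, 0.0536 to 0.0597 without BrM replicate 2 or 3 or parental replicate 2). Leaving out any library except BrM replicate 1 also ended the call of Eif2s3x (limma adjusted p 0.0677 to 0.115).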

How the data were processed

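Polyadenylated RNA of 3 BrM and 3 parental libraries was read from 1 table. The deposited signal values are normalised read counts made by the authors. Per the submitters' processing notes, the tools were STAR and HTSeq (versions not given) and GRCm38 was a build used, and the tool that gave the scaling is not given in the sources used here. In each library 100% of values fell within 0.01 of a whole number of reads, so reads were recovered by dividing by the value of 1 read.

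Libraries took the number of their column. Columns numbered 1 and 2 were matched to titles with those numbers and columns numbered 3 by group only, but as 1 title of each group has no number, the numbering of titles and columns may be shifted, which would change the libraries in the block on numbered titles. The 4879 genes at 0 in all libraries stayed out. Genes with a mean of at least 10 were tested (13821, of which 22 have symbols turned into dates and are not named) in R 4.3.3 by limma 3.58.1 fitted to log2(value + 1), with an intensity trend, group as the only term, two-sided, Benjamini-Hochberg adjusted. As alternatives, edgeR 4.0.16 with TMM called 3753 genes on recovered reads, of which 3675 were also called by limma (3881 in all), and DESeq2 1.42.0 called 5075, sharing 3846. Other alternatives were pseudocounts, filters, scalings, moderation, weights, blocks, averaged libraries and leaving out each library. The methods were tested on simulated data. Exon lengths and positions came from GENCODE M21 (GRCm38), which matched all 50 members, and promoters from RefSeq (GRCm38.p6). Lengths join all annotated exons of a gene. Some genes, members included, are counted but not reported here by name. Figures used matplotlib 3.10.9.

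The members and gene lists were chosen with earlier results of these data known. Genes named from each related list were up to 4 that passed with the smallest p-values. Values in each library are given for members that passed and for the most abundant of each role. Abcb4, Abca8b, Abcg1, Abcg2, Abcc4 and Abcf2 were added to these after their values were seen, as were Rundc3b, Tmem243, Crot, Slc25a40, Tap1 and Tap2.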

Additional observations from a re-analysis of the deposited data

How the results depend on the processing

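Of 24 alternatives to the limma fit, 2 were added after seeing the data: BrM replicates 2 and 3 averaged as 1 sample, and the column number as a replicate block. Of the 13 members that passed, 6 (Abcb1a, Abcb1b, Abcd3, Abcb9, Abca12 and Abcg4) kept their call in every alternative that tested them, and none of the 13 changed sign in any. With a mean of at least 50, which leaves out Abca12, Abca4 and Abcg4, 3 members passed as higher. With array weights 12 members passed as lower, and 3949 genes passed as higher and 4536 as lower. Leaving out 1 library gave 4 to 8 members higher and 5 to 11 lower, and 918 to 2911 genes higher and 1263 to 3608 lower. Averaging BrM replicates 2 and 3 gave 949 genes higher and 1330 lower, and Abca1, Abca3 and Abcb8 no longer passed.

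Same-numbered libraries were correlated at 0.304, -0.088 and 0.326 in their deviations from group means. BrM replicates 1 and 3 and parental replicates 1 and 3 correlated best with their own number, while BrM replicate 2 and parental replicate 2 did not. With 3 libraries in each group, these correlations cannot settle whether same-numbered libraries were paired. With the replicate block over the 4 libraries with numbered titles, 729 genes passed as higher and 1300 as lower, and 8 of the 13 members still passed. Abca2, Abca3, Abca4, Abcb6 and Abcb8 kept their direction and did not pass there (limma adjusted p 0.0631 to 0.184). The same replicate block turned Abcc10 to 0.02, Abcc3 to 0.12 and Abcg2 to -0.01. With upper quartile scaling, which moved the median gene by 0.113, Abcd2 was 0.05 and Abcf1 0.02, and with total scaling Abcd2 was 0.02. With array weights Abca7 was -0.06, Abcb10 0.10 and Abcf1 0.02. Averaging BrM replicates 2 and 3 put Abcc3 at 0.03. None of these log2 values passed. Without 1 library they ranged from -0.15 to 0.22 for Abca7, -0.32 to 0.14 for Abcb10, -0.58 to 0.04 for Abcc3 and -0.16 to 0.01 for Abcd2, of which Abcc3 passed once, at -0.58 without BrM replicate 1. Under filters that kept genes of low counts, Abca17 and Abca8a also passed. The cause of these changes was not tested. Members with fewer than about 10 reads per library are limited by depth.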
